A study of Homo sapiens with 12 samples.

Results

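The genes described here encode subunits of RNA polymerases I, II and III. They were chosen by symbol: POLR1, POLR2 or POLR3 followed by a letter, leaving out POLR2J, POLR2J2 and POLR2J3. The rule took 29 of the 17508 genes in the count table, 8 named for polymerase I, 11 for polymerase II and 10 for polymerase III. POLR2A, the largest subunit of polymerase II, was not analysed here. An exon count was given for 28 of the 29 genes and none for POLR1D, which has intron counts only.

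The RNA came from TYK-nu, an established cell line of high grade serous ovarian adenocarcinoma. The 4 groups were cells given 15 µM cisplatin for 24 h, DMSO for 24 h, 15 µM cisplatin for 72 h, and DMSO for 72 h, with 3 replicates each. DMSO was the control, every group carried one agent or the other, and no library came from untreated cells or from the start of treatment. Cisplatin is a platinum drug that crosslinks DNA. Poly(A)+ RNA was sequenced, and fragments were counted per gene over exons and, separately, over introns. All results come from 1 cell line, and the labels say triplicates without saying whether the cultures were independent, so the p-values measure the spread between these libraries, which may be partly technical.

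RNA polymerase I transcribes the precursor of the large ribosomal RNAs in the nucleolus, polymerase II transcribes messenger RNAs and many small nuclear RNAs, and polymerase III transcribes transfer RNAs, 5S ribosomal RNA and other short RNAs. Each enzyme has a pair of large subunits that form the active site, a core of smaller subunits, and a stalk. Some small subunits belong to all 3 enzymes and others to polymerases I and III. Polymerase III also carries a heterotrimer that takes part in initiation, in which POLR3G and POLR3GL are alternative paralogues.

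Exon plus intron counts per library ran from 18526830 to 68753262, with the cisplatin 72 h libraries between 31908403 and 68753262. As a check of the labelled cell line, 7 of the 9 epithelial ovarian markers on the list were in the table. KRT18 was at 133 to 179.7 per 1000000 exon counts and KRT8 at 11.01 to 14.2 at 24 h and 30.9 to 34.6 at 72 h, whereas WT1 stayed at or below 4.16, KRT19 at or below 2.77, EPCAM at or below 1.69, KRT7 at or below 0.300 and PAX8 at or below 0.0751. Among the markers of other cell types, PTPRC, HBB, COL3A1 and LUM had no exon count in any library, but the endothelial genes PECAM1 (1357 to 2484 per 1000000 exon counts) and CDH5 (652 to 1038) were abundant in all 12 libraries. Of the damage response list, MDM2 and GADD45A had no exon entry. Replicates of a group differed by more than counting noise, and no library was a copy of another.

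The promoters of 3 members are printed because of their changes in exon counts from 24 to 72 h in DMSO, where POLR1A had one of the largest falls and POLR3C and POLR3GL the largest rises. POLR3C and POLR3GL lie 120287 bases apart on the same strand of chromosome 1. Each window holds 250 bases before and 50 bases after the RefSeq start, 5′ to 3′ on the gene's strand (RefSeq, GRCh38.p14). Capitals mark exact matches, on either strand, to the GC box (GGGCGG), the CCAAT box (CCAAT) or the ETS core (CCGGAAG). The windows are chr2:86105837-86106136 (minus strand) for POLR1A, chr1:145823950-145824249 (plus strand) for POLR3C and chr1:145964440-145964739 (plus strand) for POLR3GL.
POLR1A: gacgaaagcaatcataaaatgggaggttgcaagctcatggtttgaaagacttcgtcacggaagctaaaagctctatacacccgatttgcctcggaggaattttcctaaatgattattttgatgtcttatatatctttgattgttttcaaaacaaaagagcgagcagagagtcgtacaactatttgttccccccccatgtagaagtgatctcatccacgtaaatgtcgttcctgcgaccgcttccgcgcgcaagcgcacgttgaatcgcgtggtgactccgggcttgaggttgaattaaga
POLR3C: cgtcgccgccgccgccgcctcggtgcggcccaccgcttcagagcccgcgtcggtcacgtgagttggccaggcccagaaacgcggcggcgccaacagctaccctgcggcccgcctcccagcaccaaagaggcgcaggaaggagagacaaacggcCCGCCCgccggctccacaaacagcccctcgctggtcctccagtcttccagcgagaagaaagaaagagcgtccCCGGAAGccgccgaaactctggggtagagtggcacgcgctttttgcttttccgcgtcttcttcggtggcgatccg
POLR3GL: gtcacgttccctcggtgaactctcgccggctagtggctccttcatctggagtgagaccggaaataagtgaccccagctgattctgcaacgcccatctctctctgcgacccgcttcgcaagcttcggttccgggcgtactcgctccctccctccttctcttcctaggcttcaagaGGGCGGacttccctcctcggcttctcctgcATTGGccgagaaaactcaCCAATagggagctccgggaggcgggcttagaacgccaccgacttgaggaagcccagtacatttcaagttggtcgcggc

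A RefSeq promoter was matched for 22 of the 29 members. The POLR1A window held none of the 6 motifs searched and had a GC content of 44.67%, the lowest of the 22. Over the 22 members, the GC box was present in 14 (63.6%, against 44.6% of 27305 RefSeq promoters of the same length) and the ETS core in 8 (36.4% against 10.7%). The CCAAT box was present in 4 (18.2% against 35.7%), and the TATA box (TATAAA), the YY1 core (AAGATGG) and the NRF1 core (GCGCATGCG) in 1 each (4.55%, against 12%, 6.06% and 2.1%). None of the printed motifs overlaps another. These matches describe letters in a window and are not evidence of binding.

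Levels between genes were compared only per length, as exon counts per kilobase of the union of a gene's annotated exons per 1000000 exon counts. The lengths are from GENCODE release 44, whereas the counts were made on Ensembl release 98. The bases counted and the bases of the length can therefore differ by gene. POLR2L, a small subunit shared by the 3 enzymes, had the highest level in DMSO at 24 h, 232 ± 23.0 (SD, n = 3). On the same scale the large subunits stood at 53.1 ± 3.87 for POLR2B of polymerase II, 15.2 ± 0.589 for POLR1A and 6.06 ± 0.285 for POLR1B of polymerase I, and 4.72 ± 0.279 for POLR3A and 8.51 ± 0.382 for POLR3B of polymerase III. The 6 highest of the 28 means over all libraries belonged to genes with a POLR2 symbol (POLR2L, POLR2G, POLR2E, POLR2K, POLR2C and POLR2B), of which POLR2L, POLR2E and POLR2K are shared by the 3 enzymes, also with the length of the canonical transcript. The order further down depended on the length used, and POLR1C moved from rank 17 to rank 9.

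Several members share their position with other genes. In the GENCODE release 44 annotation 11 members overlapped another gene of the table on the opposite strand. The largest such overlaps were of POLR1C with XPO5 over 40086 bases and of POLR2F with SOX10 over 16737 bases. Others were POLR2L with CD151 over 2476 bases, POLR3G with MBLAC2 over 3024 bases and POLR2B with IGFBP7 over 386 bases. The kit keeps strand, but the strand setting of the counting is not given in the sources used here. Values of the 11 members are uncertain to that extent. POLR3GL lies over 13122 bases with ENSG00000280778, an annotated gene on the same strand whose counts were not used here.

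The first question was how the subunit genes changed between 24 and 72 h. Of the 28 genes with exon counts, 16 fell and 4 rose in DMSO by edgeR's quasi-likelihood test (Benjamini-Hochberg adjusted p under 0.05 over 10444 genes), while 32.5% of all genes tested fell and 32.6% rose (65.1% called). In cisplatin 17 fell and 4 rose, while 31.5% of all genes fell and 32% rose (63.5% called). The libraries of the 2 times did not overlap for 15 lower and 5 higher members in DMSO (33.4% and 34% of all genes) and for 17 lower and 4 higher members in cisplatin (33.2% and 34%). The median log2 change of the 28 genes was -0.29 in DMSO and -0.31 in cisplatin, against 0.015 and 0.017 over all genes tested. The same 16 genes fell and the same 4 rose in both time courses, which share no library; the 16 are 100% of the DMSO list of falls and 94.1% of the cisplatin list. Over all genes tested, 84.9% of those that fell in DMSO also fell in cisplatin, and 87.4% the other way round. POLR2K, a small subunit shared by the 3 enzymes, fell in cisplatin with a log2 change of -0.33 (SE 0.084, adjusted p = 0.00152) and had -0.052 (SE 0.085, adjusted p = 0.605) in DMSO.

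By the enzyme in the symbol, 4 of the 7 polymerase I genes fell and 0 rose in each time course. The 5 subunits shared by the 3 enzymes count here under polymerase II, and POLR1C, shared by I and III, under I. Of the 11 polymerase II genes, 6 fell in DMSO and 7 in cisplatin, and POLR2G rose in both. Polymerase III had 6 of its 10 genes falling and 3 rising in each time course. Over all genes tested, 32.5% fell and 32.6% rose in DMSO, and 31.5% fell and 32% rose in cisplatin. The exon counts per 1000000 (CPM, scaled by trimmed means) summed over the 7 polymerase I genes went from 691 ± 19.8 to 478 ± 7.73 in DMSO (SD, n = 3), and over the 11 polymerase II genes from 1528 ± 23.0 to 1156 ± 40.4. The polymerase III sum moved least, from 592 ± 5.80 to 563 ± 8.16, but abundant genes weigh most in such sums. By member, the median log2 change of polymerases I, II and III was -0.36, -0.15 and -0.35 in DMSO. In cisplatin these medians were -0.19, -0.33 and -0.32.

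**Figure D1:**
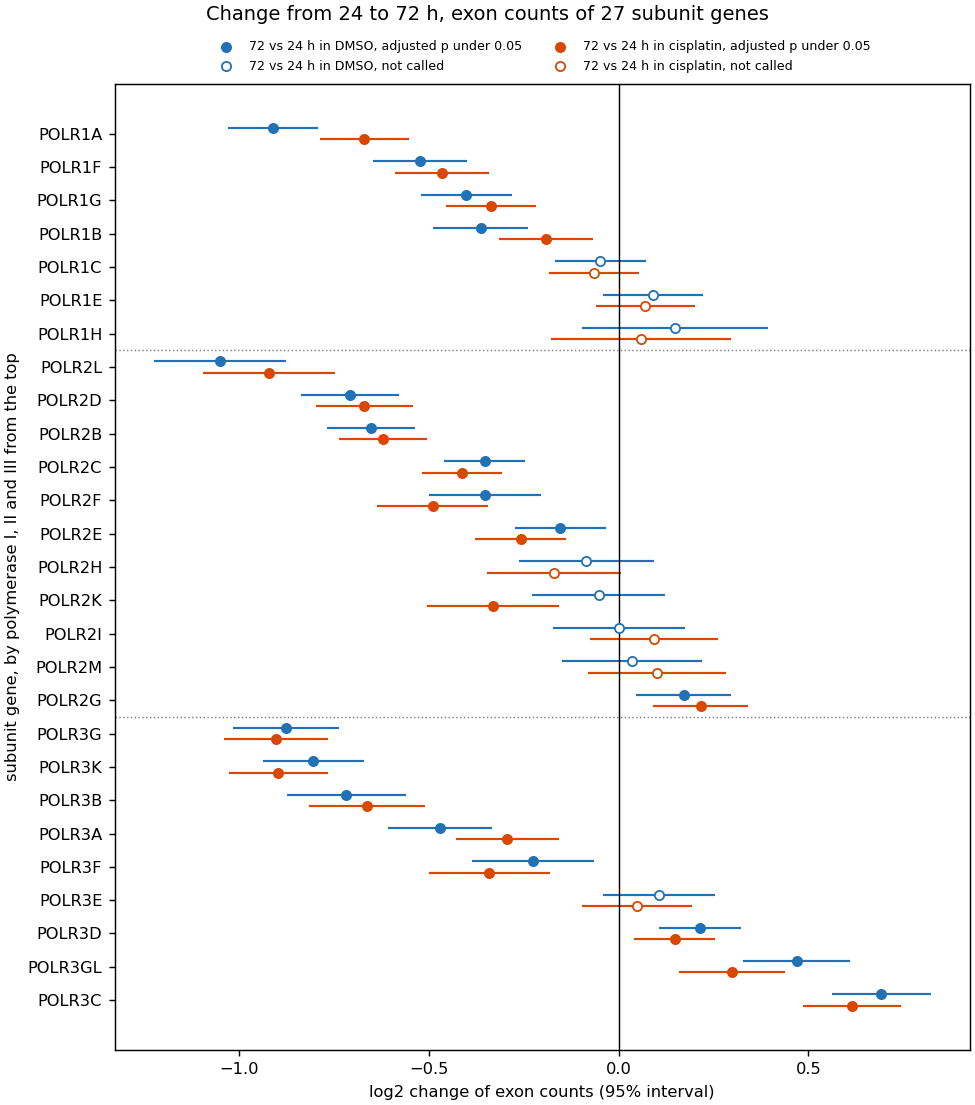
Log2 change of exon counts from 24 to 72 h (x axis, with 95% intervals) for 27 of the subunit genes (y axis), in DMSO (blue) and in cisplatin (orange); filled points have an adjusted p under 0.05. Estimates run from -1.05 for POLR2L to 0.69 for POLR3C in DMSO, and POLR2G, POLR3D, POLR3GL and POLR3C are the 4 filled points to the right of 0 in both colours.

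Other genes moved with time as well. All 6 proliferation genes on the list fell in both time courses, with a median log2 change of -1.17 in DMSO and -1.08 in cisplatin, and their summed level went from between 2035 and 2082 per 1000000 exon counts in DMSO at 24 h to between 923 and 952 at 72 h, and from between 2001 and 2067 in cisplatin to between 957 and 1051. The 3 endothelial markers summed to between 3406 and 3464 per 1000000 in DMSO at 24 h and between 2013 and 2134 at 72 h, and in cisplatin to between 3352 and 3437 and then between 2172 and 2366. Of the 3, 2, PECAM1 and CDH5, fell in both time courses. VWF, which also defines endothelium, was at or below 1.2. The part of either list in the subunit result was not tested. In bulk RNA, fewer cells of a kind and less RNA per cell cannot be told apart.

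POLR1A, the largest subunit of polymerase I, gave 303, 289.7 and 312 CPM in DMSO at 24 h and 153, 154 and 173 CPM at 72 h. In cisplatin it gave 286, 314 and 285 CPM at 24 h and 191, 178 and 187 CPM at 72 h. Every 72 h library was below every 24 h library, and the log2 change was -0.91 (SE 0.057, adjusted p = 1.58e-12) in DMSO and -0.67 (SE 0.057, adjusted p = 3.75e-10) in cisplatin. POLR1B, its partner in the active site, fell less, from 52.4, 54.9 and 57.3 CPM to 42.3, 42.0 and 43.4 CPM in DMSO, a log2 change of -0.36 (SE 0.060), and by 0.19 (SE 0.060) on the log2 scale in cisplatin.

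The stalk subunit POLR1F had 138, 140.2 and 156 CPM in DMSO at 24 h and 101, 101 and 99.9 CPM at 72 h, and its log2 change was -0.52 (SE 0.060) in DMSO and -0.46 (SE 0.060) in cisplatin. POLR1G and POLR1E form a TFIIF-like heterodimer, and only the former was called: POLR1G changed by -0.40 (SE 0.058) in DMSO and -0.34 (SE 0.057) in cisplatin, and POLR1E had 0.091 (SE 0.064) and 0.070 (SE 0.063). POLR1C, an assembly subunit of polymerases I and III, had -0.048 (SE 0.058) and -0.065 (SE 0.058), and was not called. The small zinc-ribbon subunit POLR1H, at 8.06 to 10.4 CPM over the 12 libraries, was not called either, although its DMSO libraries did not overlap between the times and its log2 change there was 0.15 (SE 0.12, adjusted p = 0.277).

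**Figure D2:**
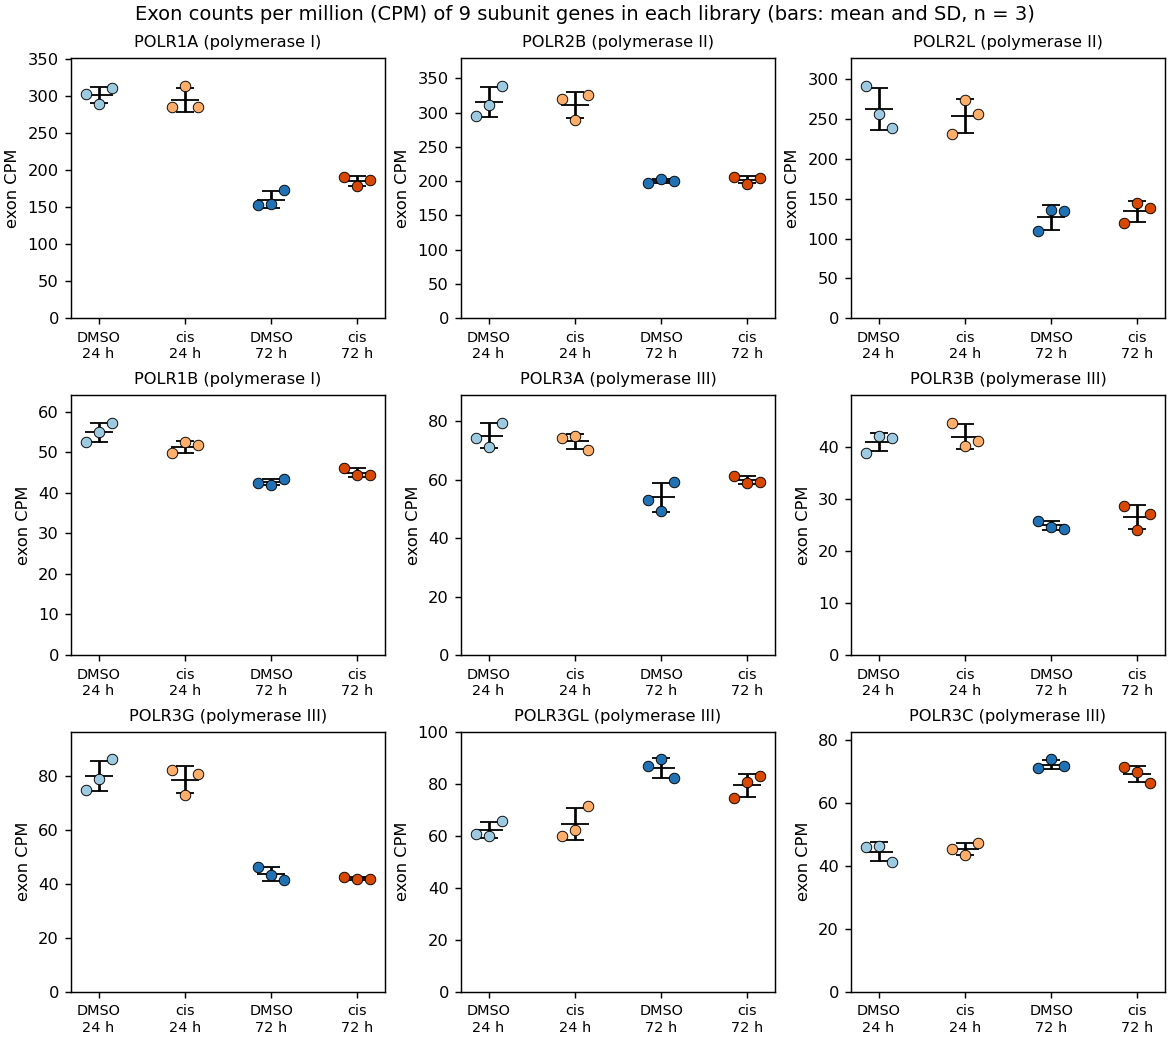
Exon CPM (y axis) of 9 subunit genes in each of the 12 libraries (points), with the mean and SD of each group of 3 (bars), by group (x axis). For POLR1A, POLR2B, POLR2L, POLR1B, POLR3A, POLR3B and POLR3G every 72 h library lies below every 24 h library, and for POLR3GL and POLR3C every 72 h library lies above.

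Among the polymerase II genes, POLR2B, the large subunit that shares the active site with the largest, had 295, 311 and 339 CPM in DMSO at 24 h and 197, 204 and 199.9 CPM at 72 h. In cisplatin it had 319, 289 and 325 CPM and 206, 196 and 205 CPM. Both time courses separated the libraries fully, with log2 changes of -0.65 (SE 0.056, adjusted p = 3.92e-10) and -0.62 (SE 0.056, adjusted p = 1.00e-09).

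The stalk of polymerase II is a pair of subunits, POLR2D and POLR2G, and these moved in opposite directions. POLR2D fell from 112, 116 and 125 CPM to 65.3, 77.2 and 73.2 CPM in DMSO, a log2 change of -0.71 (SE 0.063), and changed by -0.67 (SE 0.062) in cisplatin. POLR2G rose from 117, 114 and 107 CPM to 117, 137 and 127 CPM in DMSO, a log2 change of 0.17 (SE 0.061, adjusted p = 0.0168), and changed by 0.22 (SE 0.061, adjusted p = 0.00336) in cisplatin. In DMSO its lowest 72 h library lay just above its highest 24 h library, and the call was lost without DMSO 24 h replicate 3 (log2 change 0.14, adjusted p = 0.0742) and without DMSO 72 h replicate 2 (0.11, 0.135). The assembly subunit POLR2C changed by -0.35 (SE 0.052) in DMSO and -0.41 (SE 0.051) in cisplatin. POLR2I, a zinc-ribbon subunit, and POLR2M, also called Gdown1, a partner that is not part of every enzyme, were not called, at 0.093 and 0.10 in cisplatin.

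Of the 5 subunits shared by all 3 enzymes, 3 fell in DMSO and 4 in cisplatin. POLR2L had 291, 257 and 239 CPM in DMSO at 24 h and 109, 136 and 135 CPM at 72 h. In cisplatin it had 232, 274 and 256 CPM and 119.5, 144 and 139 CPM. Its log2 change was the largest in size among the members in each time course, -1.05 (SE 0.085, adjusted p = 1.37e-10) in DMSO and -0.92 (SE 0.084, adjusted p = 1.36e-09) in cisplatin. POLR2F changed by -0.35 (SE 0.071) and -0.49 (SE 0.071). POLR2E changed by -0.15 (SE 0.058, adjusted p = 0.0240) in DMSO, where its libraries overlapped and the call was lost without DMSO 24 h replicate 1 (adjusted p = 0.140), DMSO 72 h replicate 2 (0.0724) or DMSO 72 h replicate 3 (0.114), and by -0.26 (SE 0.058) in cisplatin, where they did not overlap. POLR2H was not called, at -0.085 (SE 0.086) and -0.17 (SE 0.085).

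In polymerase III, both large subunits fell. POLR3A had 74.3, 71.0 and 79.5 CPM in DMSO at 24 h and 53.0, 49.4 and 59.3 CPM at 72 h, and POLR3B 38.8, 42.0 and 41.7 CPM and 25.8, 24.6 and 24.1 CPM. The log2 changes were -0.47 (SE 0.067) for POLR3A and -0.72 (SE 0.076, adjusted p = 1.42e-08) for POLR3B in DMSO, and -0.29 (SE 0.066) and -0.66 (SE 0.074) in cisplatin. The zinc-ribbon subunit POLR3K fell from 59.1, 53.4 and 56.8 CPM to 32.8, 33.1 and 31.1 CPM in DMSO, a log2 change of -0.80 (SE 0.064), and by 0.90 (SE 0.063) on the log2 scale in cisplatin.

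POLR3D and POLR3E form the TFIIF-like heterodimer of polymerase III. POLR3D rose, from 133, 128 and 121 CPM to 148, 153 and 143 CPM in DMSO, by 0.22 (SE 0.052, adjusted p = 8.90e-04) on the log2 scale, and by 0.15 (SE 0.052, adjusted p = 0.0159) in cisplatin. The call in cisplatin was lost without cisplatin 24 h replicate 1 (adjusted p = 0.0670) or cisplatin 72 h replicate 1 (0.0575). POLR3E was not called, at 0.11 (SE 0.071) in DMSO and 0.048 (SE 0.070) in cisplatin.

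The initiation heterotrimer of polymerase III holds POLR3C, POLR3F and either POLR3G or POLR3GL, and its genes went both ways. POLR3C had 46.1, 46.4 and 41.1 CPM in DMSO at 24 h and 70.9, 73.8 and 71.8 CPM at 72 h. In cisplatin it had 45.2, 43.5 and 47.2 CPM and 71.5, 69.8 and 66.4 CPM. Its log2 change was 0.69 (SE 0.063, adjusted p = 1.04e-09) in DMSO and 0.62 (SE 0.062, adjusted p = 7.96e-09) in cisplatin, the highest of the 28 genes in each time course. POLR3F changed by -0.23 (SE 0.078, adjusted p = 0.0144) in DMSO and -0.34 (SE 0.077, adjusted p = 4.95e-04) in cisplatin. The DMSO call of POLR3F, whose libraries overlapped, was lost without DMSO 24 h replicate 2 (adjusted p = 0.0657), DMSO 24 h replicate 3 (0.0564) or DMSO 72 h replicate 1 (0.0702).

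The paralogues moved in opposite directions. POLR3G had 75.1, 79.1 and 86.3 CPM in DMSO at 24 h and 46.5, 43.2 and 41.4 CPM at 72 h, whereas POLR3GL had 61.0, 60.1 and 66.0 CPM and 86.9, 89.6 and 82.3 CPM. In cisplatin POLR3G went from 82.2, 73.2 and 81.1 CPM to 42.7, 41.8 and 41.8 CPM, and POLR3GL from 60.1, 62.5 and 71.8 CPM to 74.8, 80.8 and 83.0 CPM. POLR3G thus fell by 0.88 (SE 0.067) on the log2 scale in DMSO (adjusted p = 5.56e-11) and 0.90 (SE 0.066) in cisplatin. POLR3GL rose by 0.47 (SE 0.068) in DMSO (adjusted p = 1.90e-06) and 0.30 (SE 0.068) in cisplatin.

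The ratio of POLR3GL to POLR3G exon counts, which needs no scaling between libraries, was 0.812, 0.759 and 0.765 in DMSO at 24 h and 1.87, 2.07 and 1.99 at 72 h. In cisplatin it was 0.730, 0.853 and 0.886 at 24 h and 1.75, 1.93 and 1.99 at 72 h. The 72 h ratios were all above the 24 h ratios in either time course, which the opposite changes of the 2 genes already fix. Between cisplatin and DMSO the ratios overlapped at both times (two-sided exact permutation test of the mean log2 ratio, p = 0.4 at 24 h and 0.4 at 72 h, where 0.1 is the smallest that 3 libraries against 3 allow). Per kilobase of the canonical transcript the mean ratio was above 1 in every group, from 2.17 ± 0.0809 in DMSO at 24 h to 5.52 ± 0.285 at 72 h (SD, n = 3).

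**Figure D3:**
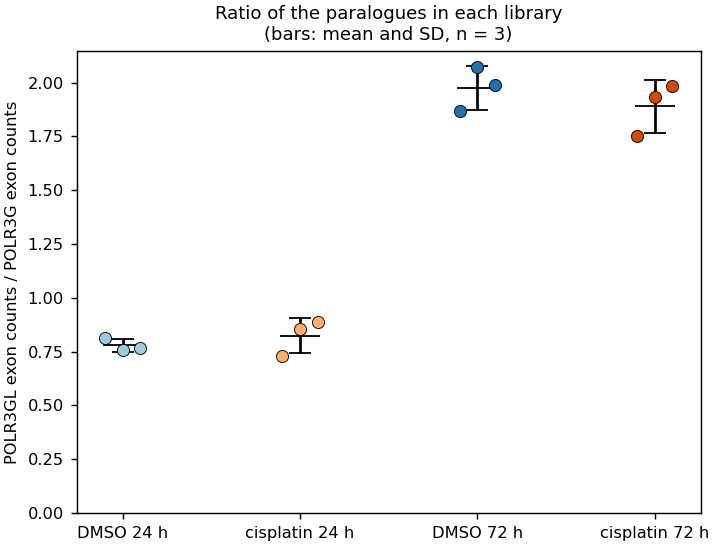
Ratio of POLR3GL to POLR3G exon counts (y axis) in each of the 12 libraries (points), with the mean and SD of each group of 3 (bars), by group (x axis). The 24 h libraries lie between 0.730 and 0.886 and the 72 h libraries between 1.75 and 2.07.

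Among the genes that work with the polymerases, 8 of the 10 polymerase I factors fell and 1 rose in DMSO, and 6 fell and 1 rose in cisplatin. NOLC1 and TCOF1, nucleolar phosphoproteins of ribosomal RNA synthesis, changed by -1.13 and -1.003 in DMSO, and TAF1D, a subunit of the polymerase I selectivity factor, by 0.62. Of the 26 polymerase II general factors tested, 9 fell and 5 rose in DMSO, and 11 fell and 3 rose in cisplatin, with medians of -0.098 and -0.15. The elongation factor TCEA1 had the largest change of them, 0.63 in DMSO and 0.56 in cisplatin.

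Of the 16 polymerase III factors tested, 8 fell and 4 rose in DMSO, and 8 fell and 2 rose in cisplatin. GTF3C1, the largest subunit of TFIIIC, changed by -0.96 in DMSO, and MAF1, a repressor of polymerase III, by 0.53 in DMSO and 0.46 in cisplatin. Of the 13 genes for assembly and import of the enzymes, 5 fell and 4 rose in DMSO, and 6 fell and 2 rose in cisplatin; PIH1D1, of the R2TP chaperone complex, changed by 0.55 in DMSO and GPN3, a GTPase of polymerase assembly, by -0.56. Of the 4 mitochondrial transcription genes, 2 fell in DMSO and 3 in cisplatin, and TFAM, which packages mitochondrial DNA, changed by -0.63 and -0.58. Between cisplatin and DMSO, edgeR called 0 genes of these lists in exon counts at either time. Over all genes, 0% were called at 24 h and 0.0287% at 72 h. The counts over time stand beside 32.5% of all genes falling and 32.6% rising in DMSO, and 31.5% and 32% in cisplatin.

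The second question was how cisplatin changed the subunit genes at each time. No member was called by edgeR in exon counts at 24 h, where 0% of all 10444 genes were called, or at 72 h, where 0.0287% were. At an unadjusted p under 0.05 there were 0 members at 24 h (2.49% of all genes) and 3 at 72 h (POLR1A, POLR2K and POLR3A; 12.6% of all genes). DESeq2 called 0 members at 24 h and 1 at 72 h, beside 0 and 79 of all 10444 genes. The 95% intervals of the 28 log2 changes lay between -0.32 and 0.34 at 24 h and between -0.41 and 0.33 at 72 h, so larger changes than these were outside every interval.

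POLR1A had the smallest p at 72 h. Its 191, 178 and 187 CPM in cisplatin were all above the 153, 154 and 173 CPM in DMSO, a log2 change of 0.21 (SE 0.057, adjusted p = 0.155). It passed the threshold without DMSO 72 h replicate 3 (log2 change 0.27, adjusted p = 0.0342), in DESeq2 (0.21, 0.0378) and without a filter on low counts (0.21, 0.0235). At 24 h it had -0.030 (SE 0.057), with overlapping libraries. POLR2K had -0.24 (SE 0.084, adjusted p = 0.260) and POLR3A 0.15 (SE 0.066, adjusted p = 0.369) at 72 h, and the libraries of both overlapped. POLR2K also passed the threshold without DMSO 72 h replicate 3 (log2 change -0.34, adjusted p = 0.0490) and without a filter on low counts (-0.24, 0.0228).

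Across the 28 genes, the cisplatin libraries lay wholly above those in DMSO for 2 genes at 72 h and wholly below for 1, and at 24 h wholly above for 0 and wholly below for 3. Over all genes these shares were 8.85% and 9.3% at 72 h and 3.33% and 3.09% at 24 h. The 3 genes at 24 h, POLR1B, POLR1C and POLR1G, encode polymerase I subunits and had log2 changes of -0.10, -0.079 and -0.044, each with adjusted p = 0.9997 in edgeR. The cisplatin effects at 72 and 24 h differed for 0 members by the test of the difference itself, where 0% of all genes were called and 2 members had an unadjusted p under 0.05 (9.43% of all genes). POLR1A had a difference of 0.24 (SE 0.080, adjusted p = 0.454) and POLR2K of -0.28 (SE 0.12, adjusted p = 0.501). The same test compares the time courses, so the smaller fall of POLR1A in cisplatin than in DMSO did not pass it.

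**Figure D4:**
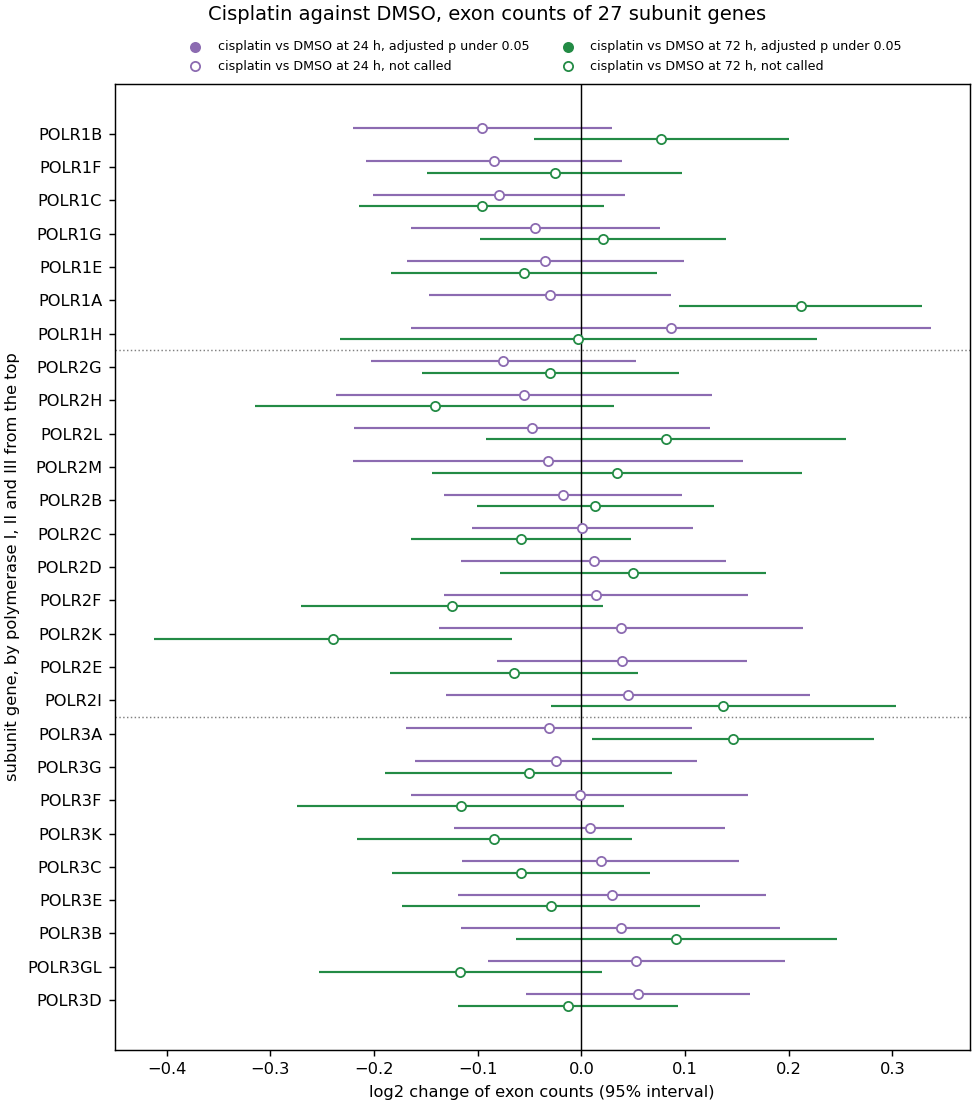
Log2 change of exon counts in cisplatin against DMSO (x axis, with 95% intervals) for 27 of the subunit genes (y axis), at 24 h (purple) and 72 h (green); open points were not called. All points are open, and the largest in size are POLR2K at -0.24 and POLR1A at 0.21, both at 72 h.

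The last question was how intron counts, which can come from unspliced RNA, stood to exon counts. Intron counts made up 51.3 ± 0.196% (SD, n = 3) of POLR2H in DMSO at 24 h, with 51.5, 51.1 and 51.4% in the 3 libraries. POLR3E stood at 13.9 ± 2.30%, POLR1H at 11.99 ± 4.23% and POLR2I at 11.3 ± 1.57% in DMSO at 24 h. At the low end stood POLR2L at 0.297 ± 0.0858% and POLR3K at 0.285 ± 0.339%. POLR2M had an intron count of 0 in all libraries, and the annotated gene GCOM1 overlaps it on the same strand.

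Summed over the members, the intronic share in DMSO at 24 h was 2.23 ± 0.129% for polymerase I, 2.94 ± 0.0610% for polymerase II and 5.15 ± 0.502% for polymerase III (SD, n = 3). Over all genes with both entries it was 6.25 ± 0.204%. At 72 h in DMSO these shares were 2.39 ± 0.147%, 4.05 ± 0.183%, 4.27 ± 0.337% and 6.60 ± 0.0396%. The polymerase II libraries at 72 h were all above those at 24 h in DMSO (2.87 to 3.00% and then 3.86 to 4.23%), and likewise in cisplatin (2.88 to 3.56% and then 3.999 to 4.31%). POLR2H carried much of the polymerase II sum: without it the share was 1.43 ± 0.0910% at 24 h and 1.95 ± 0.0978% at 72 h in DMSO.

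**Figure D5:**
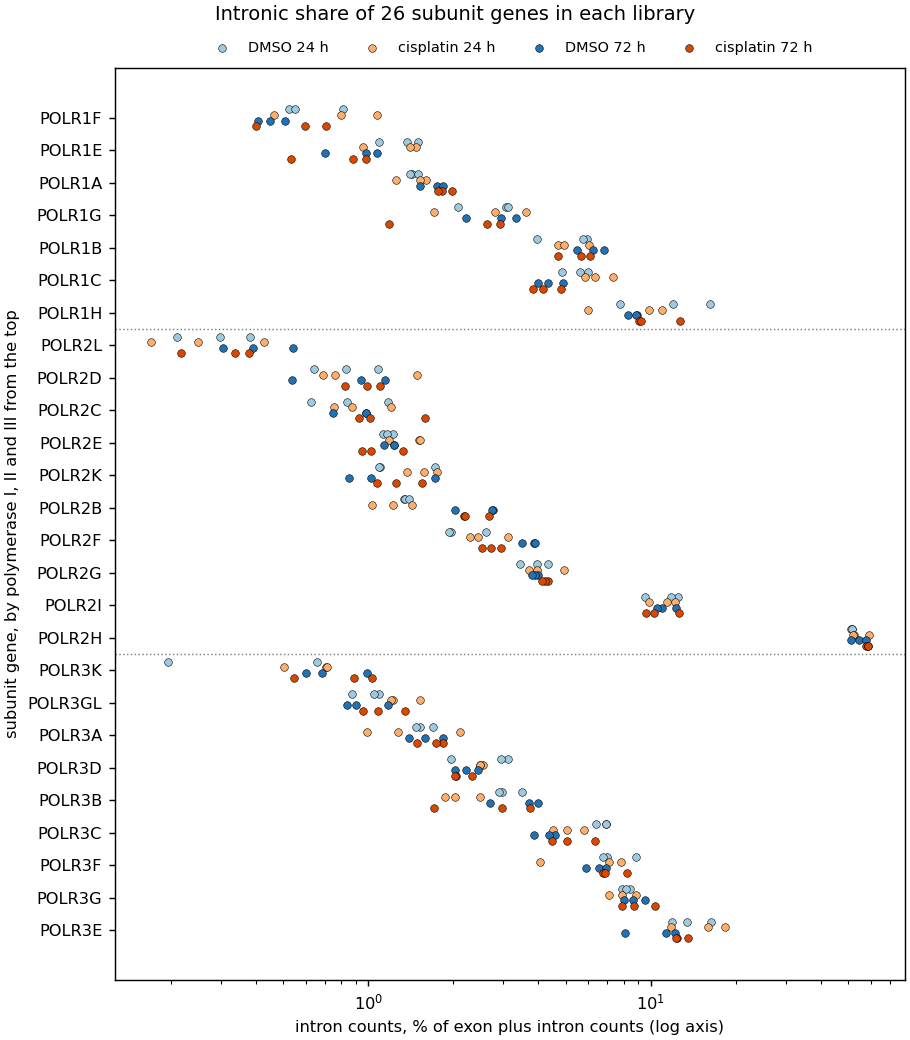
Intron counts as a percentage of exon plus intron counts (x axis, log scale) for 26 of the subunit genes (y axis) in each of the 12 libraries (points, coloured by group). POLR2H lies between 51.1 and 59.0% in every library, and POLR2M and the single DMSO 24 h library without a POLR3K intron count, both at 0, cannot be drawn on the log axis.

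Intron counts of 28 members were tested, POLR1D among them and POLR2M not. In DMSO 1 rose and 3 fell from 24 to 72 h, while 17.2% of the 9618 genes tested rose and 16.2% fell; in cisplatin 3 rose and 4 fell, while 16.4% rose and 15.4% fell. POLR1D, an assembly subunit of polymerases I and III, had 119, 110 and 69 intron counts in DMSO at 24 h and 184, 206 and 286 at 72 h, that is 63.0, 56.0 and 48.9 and 108, 114 and 98.2 intron CPM, scaled by trimmed means. Its log2 change was 0.92 (SE 0.15, adjusted p = 1.03e-06) in DMSO and 0.61 (SE 0.14, adjusted p = 7.49e-04) in cisplatin, and it has no exon count to set beside it.

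POLR3G fell in introns as in exons, by 0.71 (SE 0.15, adjusted p = 1.50e-04) on the log2 scale in DMSO and 0.62 (SE 0.14, adjusted p = 6.13e-04) in cisplatin. POLR1A fell in DMSO, with -0.57 (SE 0.17, adjusted p = 0.00555). In cisplatin POLR1C fell, with -0.65 (SE 0.17, adjusted p = 0.00218), as did POLR2E, with -0.52 (SE 0.17, adjusted p = 0.0148). POLR3C rose there, with 0.71 (SE 0.18, adjusted p = 0.00132). The POLR2E call was lost without cisplatin 24 h replicate 2 (adjusted p = 0.0777), cisplatin 72 h replicate 1 (0.0720) or cisplatin 72 h replicate 3 (0.0864).

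The intron calls of POLR1F and POLR2B were lost under several alternatives. POLR1F, with 11 to 43 intron counts a library, had -0.96 (SE 0.37, adjusted p = 0.0399) in DMSO and -0.83 (SE 0.33, adjusted p = 0.0472) in cisplatin, and DESeq2 did not call it (adjusted p = 0.0611 and 0.0727), nor in cisplatin did the fit without a filter on low counts (0.0535). In DMSO it was also lost without DMSO 24 h replicate 2 (log2 change -0.69, adjusted p = 0.243) or any DMSO 72 h library (-1.05, -0.96 and -0.85, adjusted p = 0.0512, 0.0788 and 0.139). In cisplatin it was lost without cisplatin 24 h replicate 1, where the log2 change was -0.49 (adjusted p = 0.355), without cisplatin 24 h replicate 2 (-0.94, 0.0602) or DMSO 72 h replicate 2 (-0.83, 0.0504), and without any cisplatin 72 h library (-0.89, -0.98 and -0.67, adjusted p = 0.0726, 0.0579 and 0.162). POLR2B rose in cisplatin with 0.41 (SE 0.15, adjusted p = 0.0359), which was lost when intron counts were scaled by the exon library sizes (0.33, adjusted p = 0.124), without any cisplatin 24 h library (0.42, 0.43 and 0.38, adjusted p = 0.0618, 0.0636 and 0.0883), and without cisplatin 72 h replicate 1 (0.44, 0.0502) or 2 (0.32, 0.192). That scaling changed the share of higher genes among all intron calls from 51.6% to 42.2% in DMSO and from 51.6% to 40.4% in cisplatin. Cisplatin against DMSO gave 0 intron calls among the members at either time (all genes 0.0208% at 24 h and 0.0416% at 72 h; members with an unadjusted p under 0.05, 2 and 2, beside 5% and 6.46% of all genes, and DESeq2 called 0 and 0, beside 0 and 2 of all 9618 genes).

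The ratio of exon to intron counts was tested with edgeR in a model with a term for each library, on genes with at least 10 of each count in at least 3 libraries. Of 27 members, 1 rose and 2 fell in DMSO from 24 to 72 h, while 8.09% of the 9380 genes tested rose and 3.37% fell. In cisplatin 1 rose and 1 fell, while 8.36% and 3.56% of all genes did. The median log2 change of the members was -0.011 in DMSO and -0.041 in cisplatin, against 0.100 and 0.108 over all genes tested.

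POLR2B fell in both: its intronic share was 1.33, 1.35 and 1.40% in DMSO at 24 h and 2.03, 2.77 and 2.75% at 72 h, and 1.22, 1.43 and 1.03% and 2.18, 2.67 and 2.20% in cisplatin. The shares did not overlap between times, and the ratio changed by -0.91 (SE 0.16, adjusted p = 2.28e-04) on the log2 scale in DMSO and -0.94 (SE 0.15, adjusted p = 1.44e-04) in cisplatin. Its exon counts fell while its intron counts had 0.34 (SE 0.16, adjusted p = 0.0878) in DMSO. POLR2F also fell in DMSO, with -0.79 (SE 0.19, adjusted p = 0.00660), and its intronic share went from 1.96, 2.60 and 1.93% to 3.86, 3.87 and 3.50%. In cisplatin POLR2F was not called, and its shares overlapped, at 3.13, 2.45 and 2.29% and then 2.71, 2.53 and 2.95%.

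POLR3C went the other way in DMSO, with an intronic share of 6.39, 6.93 and 6.96% and then 4.59, 4.37 and 3.84%, and its ratio rose by 0.71 (SE 0.18, adjusted p = 0.00960). In cisplatin, where its introns rose as well, the ratio had -0.0028 (SE 0.14, adjusted p = 0.993). The DMSO call was lost without DMSO 72 h replicate 3 (adjusted p = 0.0534). POLR1C rose in cisplatin with 0.66 (SE 0.17, adjusted p = 0.00911), lost without cisplatin 24 h replicate 1 (adjusted p = 0.0603). Between cisplatin and DMSO the ratio test called 0 members at either time (all genes 0% at 24 h and 0.0213% at 72 h; members with an unadjusted p under 0.05, 3 at 24 h and 1 at 72 h, beside 6.33% and 6.24% of all genes).

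The study's own model for this ratio, a binomial logistic regression that takes each fragment as an independent draw, called more members. It gave 3 higher and 4 lower of 26 in DMSO from 24 to 72 h (all genes 33.7%) and 4 higher and 6 lower of 27 in cisplatin (40.6%). Between cisplatin and DMSO it gave 0 higher and 2 lower of 26 at 24 h (11.5%), and 2 higher and 2 lower of 27 at 72 h (11.4%). The largest scores among called members (log2 ratio of the summed exon to intron ratios) were 0.71 for POLR3C and 0.48 for POLR3E, and -0.87 for POLR2B and -0.84 for POLR2F, in DMSO over time. In cisplatin over time they were 0.64 for POLR1C and 0.37 for POLR1G, and -0.97 for POLR2B among the lower ones.

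Against DMSO the scores were -0.17 for POLR2H and -0.14 for POLR3E at 24 h, and 0.53 for POLR1G, 0.47 for POLR2F, -0.36 for POLR3E and -0.24 for POLR2H at 72 h. Both calls at 24 h were lost without DMSO 24 h replicate 2 or without cisplatin 24 h replicate 2, leaving 0: POLR2H then scored -0.16 and -0.045, and POLR3E -0.014 and 0.0059. At 72 h the call of POLR3E was lost without DMSO 72 h replicate 1 (score -0.13, adjusted p = 0.503), that of POLR2F without cisplatin 72 h replicate 2 (0.0784), and that of POLR2H without DMSO 72 h replicate 2 (score -0.13, adjusted p = 0.272) or cisplatin 72 h replicate 2 (0.0534). POLR1G was lost without DMSO 72 h replicate 2 (0.164) or 3 (0.124), and without cisplatin 72 h replicate 2 it scored -0.0072. Its call over time in cisplatin was lost without cisplatin 24 h replicate 2 (score 0.15, adjusted p = 0.523), and without cisplatin 72 h replicate 2 it scored -0.17. With a dispersion estimated per gene from the replicates (quasi-binomial), 0 members were called in any of these 4 comparisons, beside 0.657% and 0.988% of all genes over time in DMSO and in cisplatin, and 0% against DMSO at 24 h and 0% at 72 h. At an unadjusted p under 0.05 this gave 4, 5, 2 and 2 members, beside 18.7%, 21.97%, 5.48% and 6.82% of all genes in the same order.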

How the data were processed

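Poly(A)+ RNA of TYK-nu cells in 4 groups of 3 was sequenced as directional libraries. Per the labels and the study's methods, the authors trimmed reads with Trim Galore 0.6.0 after FastQC 0.11.8, aligned them to GRCh38 with HISAT2 2.1.0, and counted fragments over exons and over introns of Ensembl release 98 with HTSeq. The deposited values are raw counts per gene and library, with exons and introns in separate columns, and no normalization. Exon plus intron totals ran from 18526830 to 68753262 per library. Groups and replicate numbers came from the sample titles.

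Exon counts (10444 genes after edgeR's filterByExpr) and intron counts (9618) were scaled by trimmed means and tested with edgeR 4.0.16 (R 4.3.3), quasi-likelihood, in 1 fit of the 12 libraries. The exon/intron ratio was tested with edgeR (9380 genes with at least 10 of each count in at least 3 libraries) and with the study's binomial logistic regression (at least 1 of each count in every library compared). P-values were adjusted by Benjamini-Hochberg over all genes tested, and adjusted p under 0.05 was called. The 95% intervals use edgeR's degrees of freedom. The fits were tested on simulated data, where the logistic regression, which leaves out the spread between replicates, also called many genes that had not been changed. CPM values in the text are scaled, and values per 1000000 exon counts are not. Precision is set by 3 libraries a group and by the counts, and intervals cover these libraries only.

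DESeq2 1.42.0, other scalings, no filter, a replicate block, a quasi-binomial dispersion and leaving out each library were tried as alternatives. Members with a call in any edgeR comparison were named with values, as were the large subunits and the paralogues POLR3G and POLR3GL. For the logistic regression the 2 largest scores in each direction were named, and for other lists up to 3 called genes each. The members and lists were chosen with earlier results of these data known. The values of 1 member, and 1 promoter sequence, are not reported here.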

Additional observations from a re-analysis of the deposited data

How the results depend on the processing

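Of 1806 values under the alternatives, for 120 log2 changes of members that were named or were called with any setting, 1678 kept their direction and their side of the threshold, 94 lost the call, 31 gained it and 3 turned direction. The number of members called in exon counts between cisplatin and DMSO at 72 h was 0, against 1 in DESeq2, 2 without a filter on low counts and 0 to 2 when 1 library was left out. DESeq2 called 79 of all 10444 genes there. The share of all genes is not given for the fits without a filter or with 1 library left out, here or below. Those counts describe the members only. Leaving out 1 library gave 4 to 8 intron calls (7 with all libraries) and 1 to 2 edgeR ratio calls (2) over time in cisplatin. For the logistic regression it gave 4 to 8 calls over time in DMSO (7), 5 to 9 over time in cisplatin (10), 0 to 3 against DMSO at 24 h (2) and 2 to 4 at 72 h (4), and the quasi-binomial dispersion gave 0, 0, 0 and 0. The scores that turned direction ranged, with 1 library left out, from -0.17 to 0.74 for POLR1G over time in cisplatin, from -0.38 to 0.0059 for POLR3E against DMSO at 24 h, and from -0.0072 to 0.77 for POLR1G against DMSO at 72 h. The cause was not tested.

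Same-numbered replicates did not deviate together (correlations from -0.108 to 0.102), so the numbers were not taken as pairs. With a replicate block the calls in DMSO over time, in cisplatin over time, and against DMSO at 24 and 72 h were 20, 21, 0 and 0 in exons, 3, 7, 0 and 0 in introns, 3, 2, 0 and 0 for the edgeR ratio and 6, 9, 2 and 4 for the logistic regression. The shares of all genes called with the block are not given, so these counts describe the members only. The block took away the intron call of POLR1F over time in DMSO (-0.90, adjusted p = 0.0535) and the logistic calls of POLR3G over time in cisplatin (-0.19, adjusted p = 0.0565, with -0.099 without cisplatin 24 h replicate 3 and -0.079 without cisplatin 72 h replicate 2) and POLR1G against DMSO at 72 h (0.53, adjusted p = 0.128), where it added POLR3C (-0.30, adjusted p = 0.0352).

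The median level per kilobase in DMSO at 24 h was 24.9, 82.7 and 15.97 for polymerases I, II and III with the canonical transcript's length. With whole exon counts divided only by the bases in every annotated transcript, which 12 members lack, it was 147, 360.1 and 166.9. Those counts were not limited to these bases, so the latter values are not levels over them. As the median of the members' own shares, the intronic share in DMSO and cisplatin at 24 h and then at 72 h was 2.76, 2.71, 2.83 and 2.51% for polymerase I, and 1.26, 1.40, 1.39 and 1.49% for polymerase II. For polymerase III it was 4.94, 3.64, 3.87 and 4.10%. Without POLR2H the polymerase II share was 1.43, 1.53, 1.95 and 1.92%. The canonical length and the share without POLR2H were chosen after seeing the data. POLR1F and POLR3K have few intron counts, which limits what their ratios can show.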
